A study of Mus musculus with 8 samples.

Results

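The ligands, receptors, SMAD proteins and ID targets of the BMP and TGF-beta pathway were examined in the whole skin of E17.5 mouse embryos. The set held 40 named genes, taken as the rows of the deposited value table that the platform annotation gives exactly 1 gene symbol, out of 19938 genes with such a row. By role these were 15 ligands, 12 receptors and co-receptors, 8 SMADs, and a group of 5 made up of 4 ID genes and Bambi. Each of the 40 had 1 transcript cluster, so no choice between clusters was needed. RNA of 4 skin samples labelled PPARgamma null (PpargΔ/Δ), called Pparg null here, was set against RNA of 4 labelled PPARgamma wildtype, called control. All 8 were of a mixed C57BL6/SV129 background, and each RNA was hybridised to its own array. Which exons of Pparg were removed, in which cells, and the litters or number of embryos behind each sample are not in the labels. The p-values below thus cover the spread among these RNAs only.

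BMPs, TGF-betas, activins and GDFs are secreted dimers. They bring type I and type II receptor kinases together on the cell surface. The type I receptor then phosphorylates receptor SMADs, which bind Smad4 and enter the nucleus. Smad1, Smad5 and Smad9 mostly carry BMP signals, Smad2 and Smad3 mostly carry TGF-beta and activin signals, and Smad6 and Smad7 inhibit the pathway. In skin the pathway is known for its part in hair follicle spacing and cycling, epidermal differentiation, dermal matrix and the commitment of mesenchymal precursors to fat. Id1, Id2, Id3 and Id4 encode helix-loop-helix proteins without a DNA-binding region, and their transcription is a widely used readout of BMP signalling.

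The bases before the annotated starts of 3 ID genes are shown, with short sequences of kinds that SMAD complexes bind. Whether SMADs act on these genes through this stretch was not tested. Sequences are from the RefSeq promoter table, build GRCm38.p6, 250 bases before the start, 5′ to 3′ on the gene's strand. Capitals mark GGCGCC in Id2 and Id4, a sequence bound by BMP SMADs, and GTCTG or its reverse complement CAGAC, the SMAD-binding element, in Id3. The Id2 stretch is chr12:25096093-25096342 on the minus strand, Id4 is chr13:48260866-48261115 on the plus strand and Id3 is chr4:136143572-136143821 on the plus strand.
Id2: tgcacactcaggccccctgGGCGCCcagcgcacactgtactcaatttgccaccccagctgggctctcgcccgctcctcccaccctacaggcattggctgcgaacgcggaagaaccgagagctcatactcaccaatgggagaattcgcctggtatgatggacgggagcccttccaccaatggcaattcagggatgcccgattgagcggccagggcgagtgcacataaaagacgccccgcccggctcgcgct
Id4: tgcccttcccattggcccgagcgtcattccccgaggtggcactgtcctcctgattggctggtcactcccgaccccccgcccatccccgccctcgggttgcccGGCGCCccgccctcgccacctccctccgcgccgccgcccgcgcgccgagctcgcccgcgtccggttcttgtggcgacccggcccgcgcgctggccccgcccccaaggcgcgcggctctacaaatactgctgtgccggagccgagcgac
Id3: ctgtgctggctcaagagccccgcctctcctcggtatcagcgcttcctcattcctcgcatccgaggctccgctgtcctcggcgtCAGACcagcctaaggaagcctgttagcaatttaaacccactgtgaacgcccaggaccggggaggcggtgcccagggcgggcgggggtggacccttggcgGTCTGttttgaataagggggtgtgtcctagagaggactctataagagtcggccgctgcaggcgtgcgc

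The GGCGCC of Id2 begins at base -231 and that of Id4 at base -148 from the start, and the matches in Id3 begin at -167 and -68. Of the 40 members, 27 had an entry in the table, with 32 windows of this length. Id1 had no entry, so its sequence is not shown. GGCGCC, which reads the same on both strands, stood in 7 of the 32 member windows (21.9%) and in 9.59% of all 32851 windows. The windows holding it belonged to Bmpr1a, Bmpr2, Id2, Id4, Smad5, Smad9 and Tgfbr1. GTCTG, on either strand, stood in 13 of the 32 windows (40.6%) and in 42.2% of all. The element of PPARgamma with its partner RXR, read as AGGTCA, 1 base of any kind and AGGTCA again on either strand, stood in 0 of the 32 windows and in 0.0335% of all. A match is a description of these letters and not of binding.

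The Pparg transcript cluster itself showed no fall. On the arrays labelled Pparg null it read 9.14, 9.19, 9.19 and 8.98, against 8.79, 8.88, 9.04 and 9.06 in control skin (log2 values), and the groups overlapped. If its probes lie outside the removed exons they are no check of genotype, so each direction below is that of the arrays labelled Pparg null, written Pparg null for short. Array medians lay between 6.93 and 6.96, and pairs of arrays correlated at r = 0.989 to 0.994 across 35556 clusters. Markers of the labelled tissue were bright on all arrays, among them Krt14 of basal epidermis (11.91 in Pparg null and 11.88 in control skin) and Col1a1 of the dermis (12.58 in Pparg null and 12.67 in control skin). Of 7 white adipocyte markers, 7 averaged lower in Pparg null than in control skin, 3 of them past the threshold (Fabp4, Lpl and Cd36), while Adipoq and Lep were too dim to test. Full-thickness skin is a mixture, so fewer cells of a type and less RNA per cell cannot be told apart in any value below. Labelled-null array 4 stood apart from the rest, with a score of 21.68 on the first principal component of genes outside the X and Y chromosomes, against -9.02 to 8.62 on the other 7 arrays. Xist read 12.10 to 12.27 on Pparg null arrays 3 and 4 and control arrays 1 and 4, and 4.86 to 5.39 on the others. Each group thus held arrays of both levels, and Xist was used as a covariate in an alternative fit.

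None of the 40 members rose or fell past the threshold on the arrays labelled Pparg null. A gene was tested if at least 4 of its 8 values exceeded the 30th percentile of all clusters on that array. This held for 38 members, and these 38 were above it on all 8 arrays. Gdf5 and Gdf6, growth factors of joint and skeletal patterning, were below it on all 8. Gdf5 read 5.26 to 5.39 in Pparg null and 5.33 to 5.49 in control skin, and Gdf6 read 5.35 to 5.51 in Pparg null and 5.15 to 5.57 in control skin. By limma with Benjamini-Hochberg adjustment over 15174 tested genes, 0 of 38 members passed an adjusted p of 0.05, where 18 genes (0.119%) passed among all tested. The smallest adjusted p of a member was 0.9995. At an unadjusted p under 0.05 stood 1 of 38 members (Bmpr1b), or 2.63%, beside 3.61% of all tested genes. The 4 values of each group overlapped for 38 of 38 members, and 2.45% of all tested genes had groups that did not overlap. With shares this small over all tested genes, 0 of 38 does not set the members apart.

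The measured differences were small. For the 38 tested members they ran from -0.16 (Bmp4) to 0.17 (Bmpr1b) on the log2 scale, so each was under 0.2, or 1.15-fold. Of all tested genes 97.1% were under 0.2. The 95% interval of the difference lay within -0.5 and 0.5, or 1.41-fold, for 38 of 38 members and for 96.9% of all tested genes. Where the interval held 0, a difference within it could not be told from none with 4 arrays a group. In 33 of 38 members (86.8%) the difference was under the SD within groups, beside 82.8% of all tested genes. The median size of a difference, regardless of sign, was 0.06 in the members and 0.04 over all tested genes, and the median SD within groups was 0.11 and 0.10.

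**Figure D1:**
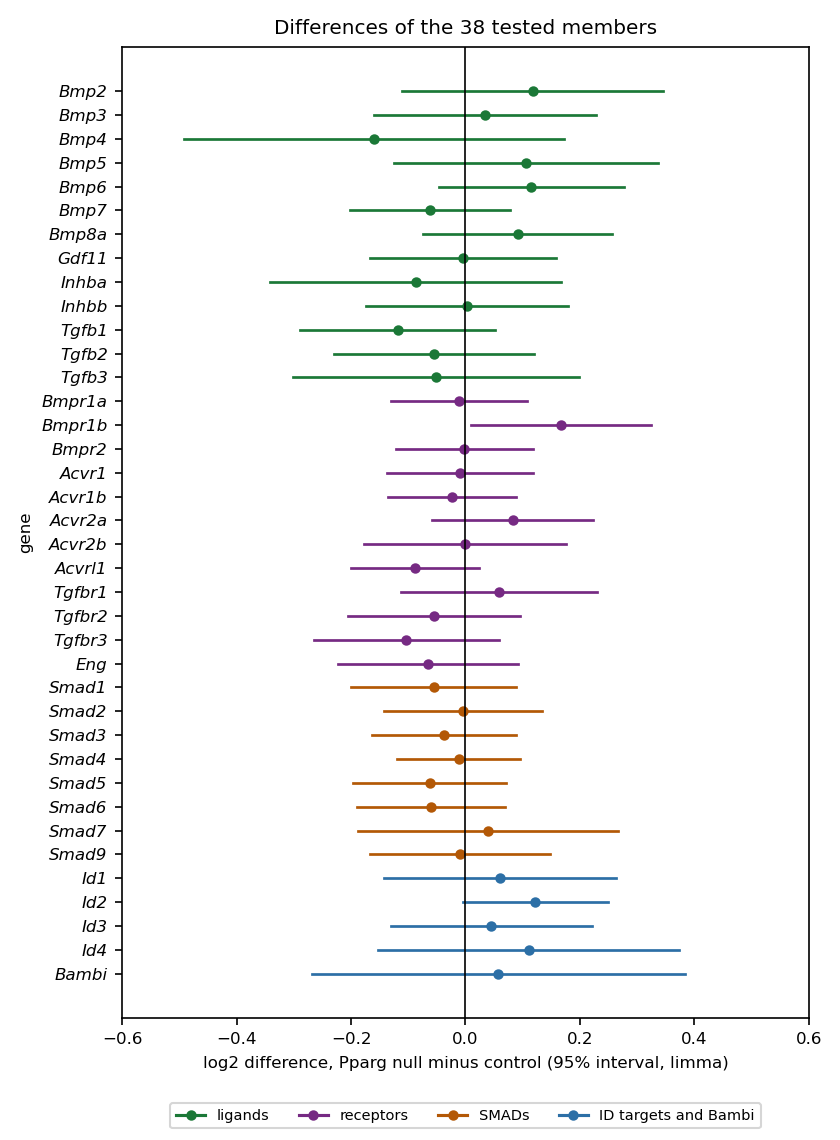
Log2 difference (Pparg null minus control) of the 38 tested members on the x axis, with its 95% interval from limma, coloured by role. Differences run from -0.16 to 0.17, and the interval of Bmpr1b alone (0.01 to 0.32) does not reach 0.

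Among the ligands, 7 of 13 tested genes lay below control and 6 above, with a median difference of 0.00, as over all tested genes (0.00, with 50.3% below). Bmp6, a BMP of suprabasal epidermis, read 7.51, 7.39, 7.46 and 7.29 on Pparg null arrays 1 to 4, against 7.23, 7.39, 7.16 and 7.40 on control arrays 1 to 4 (log2 values). Pparg null arrays 1 and 3 lay above every control value, and control arrays 1 and 3 lay below every Pparg null value. The other values overlapped (difference 0.11, SE 0.0722, 95% interval -0.05 to 0.28, limma p = 0.143, exact permutation p = 0.2). Without control array 3 the difference was 0.07. Tgfb1, the TGF-beta ligand of immune and fibrotic responses, read 8.99, 8.95, 8.89 and 8.72 in Pparg null, against 8.85, 9.11, 8.99 and 9.08 in control skin. It lay lower on average by 0.12 with overlapping groups (95% interval -0.29 to 0.05, limma p = 0.151, exact permutation p = 0.2), and the difference was -0.06 without Pparg null array 4.

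Bmp2, a ligand of the hair germ and matrix, read 8.84, 9.06, 8.81 and 9.28 in Pparg null, against 8.85, 8.77, 8.96 and 8.94 in control skin (log2 values). The 9.28 on Pparg null array 4 was the highest of all 8, and the other Pparg null arrays, at 8.81 to 9.06, overlapped the control range of 8.77 to 8.96. The difference of 0.12 (limma p = 0.276, exact permutation p = 0.429) was 0.02 without that array and 0.18 without Pparg null array 3. Bmp8a, which has a close paralog in Bmp8b, read 6.16, 6.26, 6.24 and 6.45 in Pparg null, against 6.29, 6.14, 6.23 and 6.07 in control skin, a difference of 0.09 (limma p = 0.246, exact permutation p = 0.314). It was 0.03 without Pparg null array 4 and 0.05 without control array 4. The sources used here do not say whether its probes separate the paralogs.

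Bmp4, a dermal BMP that also drives mesenchymal precursors towards fat, had the largest negative difference. It read 9.35, 9.45, 9.56 and 8.81 in Pparg null, against 9.25, 9.53, 9.54 and 9.49 in control skin (log2 values). The 8.81 on Pparg null array 4 lay below every control value, and the other 3 Pparg null arrays lay within or just above the control range. The difference of -0.16 (95% interval -0.49 to 0.17, limma p = 0.308, exact permutation p = 0.543) was 0.00 without array 4. Bmp4 was described in full after its values were seen. Tgfb3, an isoform of embryonic epithelium and mesenchyme, was likewise lowest on that array at 9.15, with 9.45 to 9.68 on the other Pparg null arrays and 9.37 to 9.62 in control skin.

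Of the other tested ligands, Bmp5, the BMP mutated in short-ear mice, differed by 0.11, and its 6.88 on Pparg null array 3 stood apart from 6.43 to 6.49 on the others of its group. Bmp3, a BMP that opposes osteogenic signalling, and Bmp7, a BMP of epithelial-mesenchymal organs and brown fat, differed by 0.03 and -0.06. Differences of -0.05 for Tgfb2, which acts in hair follicle formation, and 0.00 for Gdf11, a regulator of axial patterning, were smaller than their SDs within groups. The activin subunit genes Inhba and Inhbb differed by -0.09 and 0.00. Inhba read 7.96 on control array 1, against 8.28 to 8.34 on the other control arrays.

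**Figure D2:**
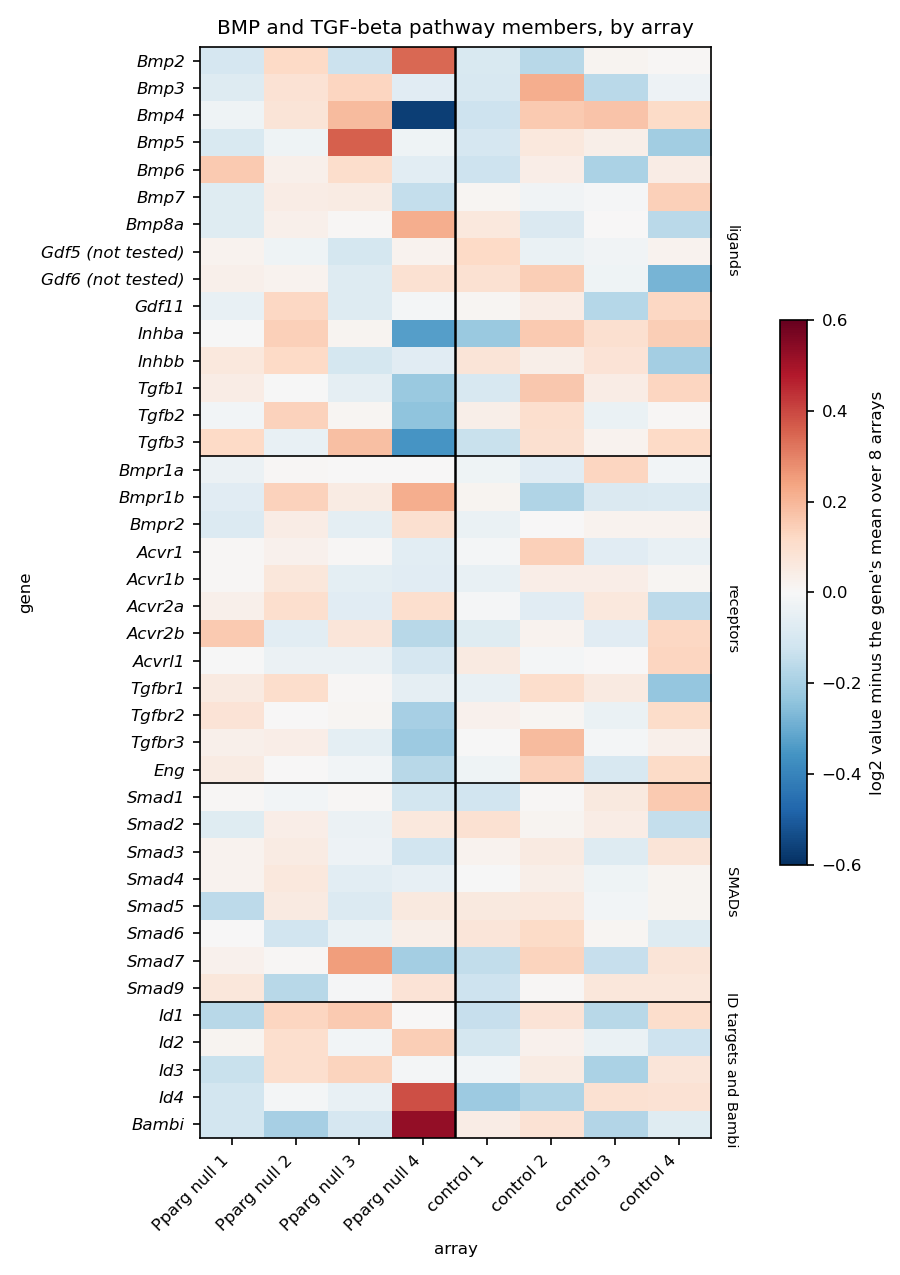
Log2 value of each of the 40 members minus its mean over 8 arrays (colour), genes down the page by role and arrays across, the 4 Pparg null arrays left of the 4 control arrays. Pparg null array 4 holds the lowest Bmp4 and Tgfb3 and the highest Bmp2, Id4 and Bambi of its group, and no role changes colour as a block between the groups.

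Bmpr1b, a type I BMP receptor known for cartilage condensation, showed the largest positive difference and the smallest unadjusted p among the receptors. It read 7.54, 7.74, 7.65 and 7.82 on the arrays labelled Pparg null, against 7.62, 7.42, 7.52 and 7.52 in control skin (log2 values). The groups overlapped, because Pparg null array 1 lay below control array 1. The difference of 0.17 (SE 0.0702, 95% interval 0.01 to 0.32, 1.12-fold) had a limma p of 0.0391 and an adjusted p of 0.9995. The exact two-sided permutation p was 0.0571, with 0.0286 the smallest that 4 against 4 can give. Leaving out 1 array at a time kept it between 0.12 and 0.22.

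The other type I and type II receptors differed less. Acvr2a, a type II receptor for activins and BMPs, lay higher in Pparg null on average, at 9.19, 9.25, 9.09 and 9.25 against 9.15, 9.09, 9.22 and 8.997 in control skin, a difference of 0.08 (limma p = 0.222, exact permutation p = 0.229) that was 0.04 without control array 4. The ubiquitous BMP receptors Bmpr1a and Bmpr2 differed by -0.01 and 0.00, with intervals of -0.13 to 0.11 and -0.12 to 0.12. Likewise Acvr1, Acvr1b and Acvr2b, which serve BMPs and activins, differed by -0.01, -0.02 and 0.00. Tgfbr1 and Tgfbr2, the signalling receptors for TGF-beta, differed by 0.06 and -0.05. In all, 9 of 12 receptors lay below control and 3 above, with a median difference of -0.01.

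Acvrl1, the endothelial type I receptor ALK1, read 8.21, 8.18, 8.18 and 8.12 in Pparg null, against 8.27, 8.20, 8.22 and 8.35 in control skin (log2 values). Pparg null array 1 lay above control array 2, and the other 3 Pparg null arrays lay below every control value. The difference was -0.09 (95% interval -0.20 to 0.02), with a limma p of 0.110 and an exact two-sided permutation p of 0.0571. Eng, the endothelial co-receptor endoglin, differed by -0.07 (95% interval -0.22 to 0.09). Of 7 endothelial markers 3 lay below control and 4 above, and log2 of their summed level ran from 12.27 to 12.30 in Pparg null and from 12.14 to 12.31 in control skin. Tgfbr3, the co-receptor betaglycan, read 10.09, 10.10, 10.002 and 9.84 in Pparg null, against 10.06, 10.25, 10.05 and 10.09 in control skin, a difference of -0.10 (limma p = 0.182, exact permutation p = 0.257). It was -0.05 without Pparg null array 4 and -0.06 without control array 2.

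The SMADs had the smallest median size of difference of the 4 roles (0.04). Of 8 genes 7 lay below control and 1 (Smad7) above, with a median difference of -0.02 and a range of -0.06 to 0.04. Smad5, a BMP SMAD, read 9.83, 10.03, 9.90 and 10.04 in Pparg null, against 10.04, 10.05, 9.97 and 9.999 in control skin (log2 values), a difference of -0.06 (95% interval -0.20 to 0.07, limma p = 0.318, exact permutation p = 0.314). Pparg null arrays 1 and 3 lay below the control range, and arrays 2 and 4 within it. Without Pparg null array 1 the difference was -0.02.

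Smad1, another BMP SMAD, read 8.69, 8.67, 8.69 and 8.57 in Pparg null, against 8.57, 8.69, 8.74 and 8.84 in control skin (difference -0.06, limma p = 0.408, exact permutation p = 0.4). Smad6, the inhibitory SMAD of the BMP branch, read 7.06, 6.94, 7.01 and 7.09 in Pparg null, against 7.13, 7.17, 7.07 and 6.98 in control skin (difference -0.06, limma p = 0.326, exact permutation p = 0.257). In both genes the groups overlapped. With 1 array left out, Smad1 ran from -0.10 (without control array 1) to -0.01 (without control array 4), and Smad6 from -0.10 (without control array 4) to -0.03 (without Pparg null array 2 or control array 2). Smad7, which inhibits both branches, differed by 0.04 (95% interval -0.19 to 0.27), the widest interval of the SMADs. Smad4, the shared partner, differed by -0.01 (95% interval -0.12 to 0.10), and Smad2, Smad3 and Smad9 by 0.00, -0.04 and -0.01. These values are messenger levels and say nothing of SMAD phosphorylation.

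The ID genes and Bambi, taken here as transcriptional readouts, lay above control in 5 of 5 cases. Over all tested genes 50.3% lay below control. In each of the 5 the groups overlapped, and none passed the threshold. Their median difference was 0.06, and it ran from 0.02 (without control array 3) to 0.13 (without Pparg null array 1) when 1 array was left out. Id2, the ID gene whose GGCGCC is shown above, read 11.16, 11.24, 11.13 and 11.29 in Pparg null, against 11.04, 11.17, 11.10 and 11.02 in control skin (log2 values). Pparg null arrays 2 and 4 lay above every control value, and arrays 1 and 3 below control array 2. The difference of 0.12 (SE 0.0565, 1.09-fold) had a limma p of 0.0578, an adjusted p of 0.9995 and an exact two-sided permutation p of 0.0857. It stayed between 0.09 and 0.15 when 1 array was left out.

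Id1 and Id3, often induced together by BMPs, varied within groups as much as between them. Id1 read 8.70, 8.99, 9.02 and 8.87 in Pparg null, against 8.72, 8.95, 8.70 and 8.97 in control skin, a difference of 0.06 (limma p = 0.521, exact permutation p = 0.6). Id3 read 8.03, 8.26, 8.30 and 8.15 in Pparg null, against 8.14, 8.21, 7.97 and 8.23 in control skin, a difference of 0.05 (limma p = 0.577, exact permutation p = 0.571). Both were lowest on array 1 and highest on array 3 of the Pparg null group, and lowest on array 3 and highest on array 4 of the control group. For Id1 the difference ran from 0.02 (without control array 3) to 0.13 (without Pparg null array 1). Id3 is shown in full beside Id1 although its p did not place it among the first 3 of its role. In both genes the range within each group exceeded the difference between groups.

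Id4, the ID gene of neural and mammary progenitors, read 8.53, 8.63, 8.60 and 9.03 in Pparg null, against 8.42, 8.46, 8.73 and 8.73 in control skin (log2 values; difference 0.11, limma p = 0.370, exact permutation p = 0.514). The 9.03 on Pparg null array 4 was the highest of all 8 arrays, and without that array the difference was 0.00. Bambi, a pseudoreceptor that blocks type I receptors and is itself induced by the pathway, read 7.37, 7.28, 7.38 and 8.004 in Pparg null, against 7.52, 7.56, 7.30 and 7.40 in control skin. It stood above the control range on Pparg null array 4 alone, and the difference, 0.06 with all arrays, was -0.11 without that array. Bambi was described in full after its values were seen.

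**Figure D3:**
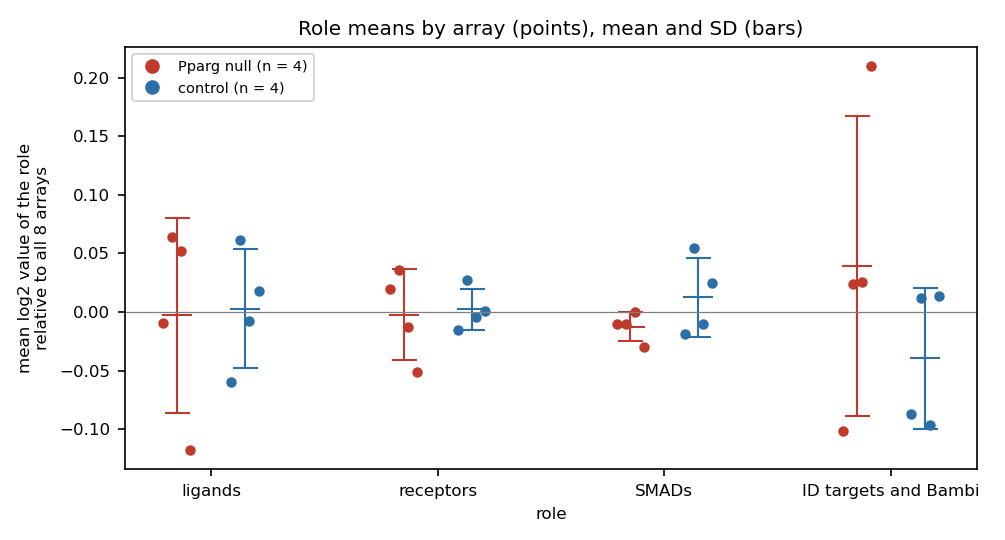
Mean log2 value of the tested members of each role on each array, relative to the mean over all 8 arrays (points), with mean and SD of each group (bars, n = 4), Pparg null left of control. The groups overlap in every role, and Pparg null array 4 is the lowest point of the ligands (-0.12) and the highest of the ID genes and Bambi (0.21).

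Array 4 was most often at the edge of the Pparg null group. Of the 38 tested members, array 4 had the lowest value of its group in 18 and the highest in 12, or 30 in all, against 14 to 18 for the other Pparg null arrays and 14 to 23 for the control arrays. On average the ligands lay at -0.01, 0.06, 0.05 and -0.12 on Pparg null arrays 1 to 4, against -0.06, 0.06, -0.01 and 0.02 on control arrays 1 to 4 (log2, relative to all arrays). The ID genes and Bambi lay at -0.10, 0.02, 0.03 and 0.21 on Pparg null arrays, against -0.09, 0.01, -0.10 and 0.01 on control arrays. The mean of the ligands was thus lowest, and that of the ID genes and Bambi highest, on the same array. Single genes did not all follow these means. Bmp2 and Bmp8a were highest on Pparg null array 4, and Id1 and Id3 were highest on Pparg null array 3.

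Markers of other skin compartments moved with that array. The 9 hair shaft and root sheath genes lay at -0.21, -0.13, 0.13 and -0.59 on Pparg null arrays 1 to 4, against -0.21, 0.24, 0.52 and 0.24 on control arrays 1 to 4, and 9 of 9 averaged lower in Pparg null. Log2 of their summed level ran from 10.38 to 10.74 in Pparg null and from 10.52 to 11.14 in control skin. The 6 dermal fibroblast genes were lowest on Pparg null array 4 as well (-0.15, with -0.03 to 0.07 on the other 7 arrays). The mean of the 4 suprabasal epidermis genes was highest there (0.19, with -0.14 to 0.07 on the others). Of these 4, Ivl alone was highest on that array (11.82, with 10.85 to 11.34 on the others), and Krt1, Krt10 and Lor were highest on a control array. The part of these compartments in the members' values was not tested. Without Pparg null array 4, 10 of 38 members changed sign, and 0 passed the threshold.

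Among further pathway genes, those past the threshold were 2 secreted modulators, and whether the lists differ was not tested. Of 23 tested antagonists and carriers, 2 fell (Chrdl1 and Bmper) and 0 rose. Chrdl1, the chordin-like BMP antagonist, read 6.95, 6.87, 7.39 and 6.75 in Pparg null, against 7.82, 8.24, 8.26 and 8.13 in control skin (log2 values), with no overlap. Its level was 0.458 of control (difference -1.13, SE 0.143, limma adjusted p = 0.0211). Bmper, a crossveinless-type BMP modulator, read 6.61, 6.50, 6.56 and 6.60 in Pparg null, against 7.30, 7.44, 7.13 and 7.19 in control skin, with no overlap. Its level was 0.615 of control (difference -0.70, SE 0.0694, limma adjusted p = 0.00975). The differences kept their size with 1 array left out, at -1.26 to -1.04 for Chrdl1 and -0.75 to -0.64 for Bmper, while the adjusted p did not always pass. Chrdl1 missed the threshold without Pparg null array 1 (adjusted p = 0.114) or 2 (0.104), or without control array 2 (0.112), 3 (0.0926) or 4 (0.124). Bmper missed it without Pparg null array 2 (0.0577). With the replicate block both missed it (0.0600 for Chrdl1 and 0.0936 for Bmper), and Chrdl1 missed it with Xist as a covariate (0.0533), with differences of -1.13 for Chrdl1 and -0.70 for Bmper in each of these fits. White adipocyte markers separated the groups in the same way, with log2 of their summed level at 10.56 to 10.95 in Pparg null and 11.51 to 11.88 in control skin. The summed level of the 5 mast cell markers, 5 of 5 lower, barely separated them (12.87 to 13.038 in Pparg null and 13.042 to 13.18 in control skin). Each mast cell gene overlapped between groups and 0 passed the threshold, with differences from -1.01 (Tpsab1) to -0.02 (Kit). The part of either marker set in the falls of Chrdl1 and Bmper was not tested. No other gene of that list had an unadjusted limma p under 0.05.

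**Figure D4:**
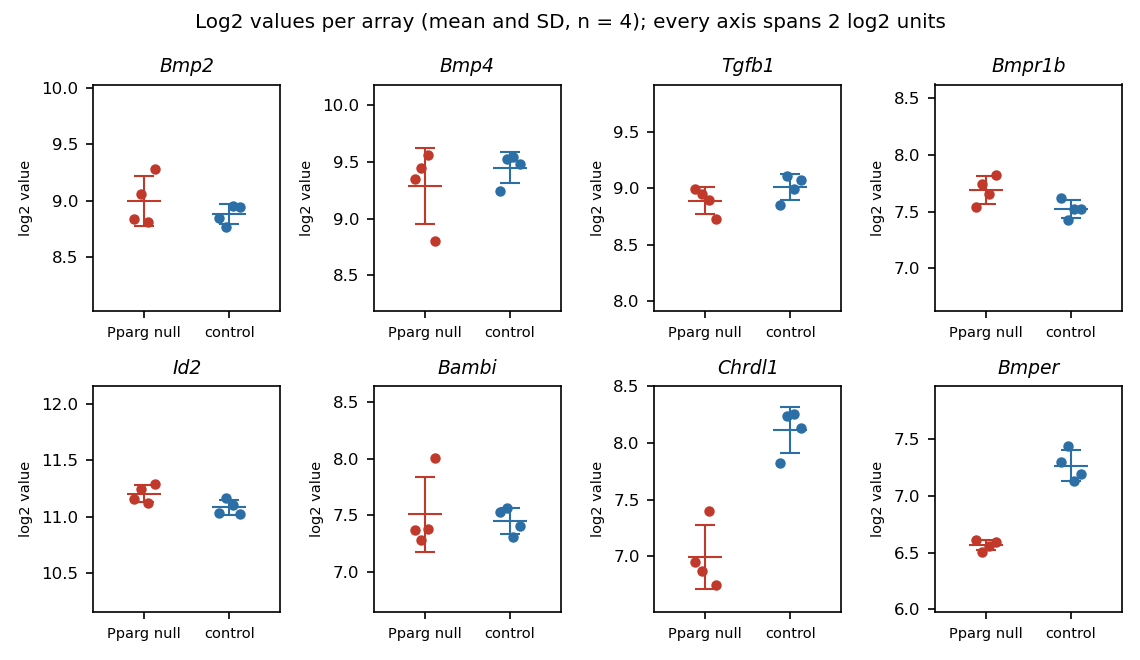
Log2 value of 8 genes on each array (points), with mean and SD (bars, n = 4 each), Pparg null left of control, each axis spanning the same range of 2 log2 units. The members Bmp2, Bmp4, Tgfb1, Bmpr1b, Id2 and Bambi overlap between groups, whereas the secreted modulators Chrdl1 and Bmper do not.

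The remaining pathway lists held 0 genes past the threshold. Of 15 tested further ligands and receptors, 8 lay below control and 7 above. Gdf10, a TGF-beta family ligand of the BMP3 subgroup, read 7.84, 7.67, 7.93 and 7.63 in Pparg null, against 7.88, 8.14, 7.96 and 7.93 in control skin (difference -0.21, limma p = 0.0285, exact permutation p = 0.0857, adjusted p = 0.9995), with overlapping groups. Nodal, a ligand of early embryos, read 6.11, 5.97, 5.95 and 6.03 in Pparg null, against 6.19, 6.12, 6.04 and 6.07 in control skin, a difference of -0.09 with overlap.

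Among 19 intracellular regulators 8 lay below and 11 above. Zfyve9, the SMAD anchor SARA, read 9.10, 9.38, 9.11 and 9.39 in Pparg null, against 9.21, 9.05, 9.18 and 9.15 in control skin, a difference of 0.10. Fkbp1a, which restrains type I receptors, read 10.21, 10.18, 10.24 and 10.07 in Pparg null, against 10.14, 10.27, 10.25 and 10.26 in control skin, a difference of -0.05. The groups overlapped in both genes.

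Of the target genes other than the ID genes, none rose or fell past the threshold. Of 17 tested, 11 lay below control and 6 above (median -0.08, with 0.00 over all tested genes), and 0 passed. Msx1, a homeobox target of BMPs, read 6.47, 6.45, 6.35 and 6.38 in Pparg null, against 6.73, 6.50, 6.56 and 6.40 in control skin (difference -0.14, limma p = 0.0885, exact permutation p = 0.114). Postn, the matrix protein periostin, read 12.43, 12.39, 12.47 and 12.31 in Pparg null, against 12.39, 12.47, 12.54 and 12.53 in control skin (difference -0.08, limma p = 0.154, exact permutation p = 0.114). The list holds Col1a1, Fn1 and other dermal matrix genes, and on Pparg null array 4 its mean lay at -0.10, against -0.01 to 0.04 on the other 7 arrays.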

How the data were processed

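Total RNA from E17.5 skin was amplified, labelled and hybridised to 8 single-colour Affymetrix arrays. Per the submitters' processing notes, Expression Console and RMA gave the deposited log2 values. Versions, build and filters are not given. Between-array normalization would hide a shift of all genes together. Of 35556 clusters, 21789 had 1 symbol, and symbols were updated through gene IDs (assembly GRCm38.p6). Members, lists and alternatives were chosen with earlier results of these data known; Hjv and Tdgf1 were matched under these names. Differences, Pparg null minus control, were fitted without covariates in limma 3.58.1 (R 4.3.3; lmFit, eBayes, two-sided, Benjamini-Hochberg over 15174 genes). The test was checked on simulated data with independent noise for each gene and planted differences larger than any measured in the members. Single values were also compared by exact permutation over 70 assignments. Full values are given for the 4 ligands, 4 receptors, 3 SMADs and 3 of the ID group with the smallest p, and for the 2 with the smallest p in each pathway list; Bmp4, Bambi and Id3 were added after their values were seen. Replicate numbers did not pair the arrays (r = -0.31, 0.20, 0.05 and -0.03 across genes). Precision is limited by the number of arrays.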

Additional observations from a re-analysis of the deposited data

Results flagged for a closer look

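In 6 of 108 groups of 4 arrays, 1 array lay far from the rest of its group, measured as its gap to the nearest other array over the group's whole range; the gap passed Dixon's 95% critical value. Chance gives about 1 in 20 such groups. Bambi read 8.004 on Pparg null array 4, with 7.28 to 7.38 on the others of its group (gap 0.864). Bmp5 read 6.88 on Pparg null array 3, with 6.43 to 6.49 on the others (gap 0.856). Bmpr1a read 10.45 on Pparg null array 1, with 10.48 to 10.49 on the others (gap 0.852), a difference of a few hundredths. In control skin, Inhba read 7.96 on array 1, with 8.28 to 8.34 on the others (gap 0.844), and Inhbb read 7.38 on array 4, with 7.62 to 7.67 on the others (gap 0.838). Fkbp1a read 10.14 on control array 1, with 10.25 to 10.27 on the others (gap 0.846).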

How the results depend on the processing

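The count of members past the threshold was 0 under every alternative: other filters, scalings, priors and array weights, the replicate block, clusters averaged per gene, an adjusted p of 0.1, Xist as a covariate, and leaving out arrays. Without 1 array the smallest adjusted p of a member was 0.982. The count of all genes past the threshold, 18, was 1 with the replicate block, 11 with Xist as a covariate and 3 to 15 without 1 array. The count of pathway genes past it, 2, was 0 with the replicate block, 1 with Xist and 0 to 2 without 1 array; fits with fewer arrays have fewer degrees of freedom. For the 14 members chosen by p, Bmp4 and Bambi, 281 of 287 values kept their direction. This count includes values that could not change. Other filters, the other prior, the replicate block and averaged clusters leave a member's difference as it was. Bmp4 ran from -0.25 to 0.0019 without 1 array, Id4 from -0.000089 to 0.16, and Bambi from -0.11 to 0.13. With the pair of control array 1 and Pparg null array 4 left out, the arrays that stood apart in earlier results, Id4 was -0.054 and Bambi -0.084, and with array weights Bambi was -0.058; the cause was not tested. Of 38 members 18 kept their sign without any 1 array. Without 1 array, role medians ran from -0.05 to 0.02 (ligands), -0.02 to 0.00 (receptors), -0.04 to -0.01 (SMADs) and 0.02 to 0.13 (ID genes and Bambi), each shift less than the SD between arrays. Centring the arrays moved the median of all genes to -0.01.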
